A study of Arabidopsis thaliana with 17 samples.

Results

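The 808 sites described here are stretches of open chromatin of Arabidopsis thaliana that carried a DNase I peak in developing seed coat and in flowers and none in root. They were chosen from the authors' peak lists. Nuclear peaks of the 11 lists with the mark 6.8M in their names, taken to mean that each was cut to the same number of reads, were merged wherever they touched or overlapped, which gave 49442 sites. A site was kept if it had a peak in all 3 seed coat lists, in none of the 8 root lists, and if a peak of the open or the unopened flower list lay over it by at least 1 bp. These shared sites made up 1.63% of all sites and 27.2% of the 2969 sites that had a peak in every seed coat list and no root list, called seed coat-only below. Presence or absence in these lists is therefore the choice itself and is given as a description, with no test.

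All plants were Col-0 lines that carry a nuclear tagging protein (NTF) under one promoter and the biotin ligase birA under ACT2, so that tagged nuclei could be captured by their biotin. Seed coat nuclei came from GL2:NTF::ACT2:birA siliques at 7 and at 4 days past anthesis (DPA), flower nuclei from open and from unopened flowers of UBQ10:NTF::ACT2:birA plants, both grown in soil. One flower label reads up-open and is taken as unopened from the growth protocol. Root nuclei came from plate-grown seedlings, as non-hair cells of GL2:NTF::ACT2:birA at 7 or 10 days, hair cells of ADF8:NTF::ACT2:birA at 7 days, and whole root of UBQ10:NTF::ACT2:birA at 7 days. GL2 is a regulator of epidermal cells, ADF8 marks hair cells and UBQ10 is active in most cells, so the GL2 line served both the seed coat and the non-hair root, and the UBQ10 line both the flowers and the whole root. The 3 seed coat lists are the pool of the 7 DPA libraries, 4 DPA replicate 1 and the pool of 2 further 4 DPA libraries. Each flower stage has 1 library and 1 list with no depth mark, so the number of reads behind it is unknown, and no comparison below is a test over samples. Between the soil-grown organs and root, organ and soil or plate growth differ together and cannot be told apart. Between seed coat and flowers, organ and tagged line differ together and cannot be told apart. The cells of a flower that gave a peak cannot be told apart either.

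DNase I cuts DNA where nucleosomes are displaced, mostly at regulatory DNA bound by transcription factors, so a peak marks a candidate promoter or enhancer without saying whether its gene is on. The seed coat develops from the integuments of the ovule, which is itself a floral organ, and its outer layer later makes mucilage. Floral organ identity is set by MADS domain proteins, which bind the CArG box. Genes of photosynthesis are often controlled through the G-box, a binding site of bHLH and bZIP factors, and epidermal genes through the L1 box, a binding site of class IV HD-ZIP proteins.

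Sequences of shared sites are printed here because they carry the motifs counted further on. They are from the TAIR10.1 reference, 5′ to 3′ on the strand of the nearest gene, and only bases outside annotated exons are shown. For each of 6 gene lists the highest-ranked site was taken whose longest stretch outside exons had at least 60 bases and held the motif chosen for the list. Capitals mark the motif, which is a CArG box at AG (chr4:10381161-10381370, plus strand), ATH1 (chr4:15918154-15918350, minus strand) and TCP18 (chr3:6380801-6380950, plus strand), a G-box at LHCB2.3 (chr3:10255641-10255890, plus strand), 2 L1 boxes at ABCG11 (chr1:6142261-6142401, plus strand) and 2 TCP cores at GIS (chr3:21510281-21510530, minus strand).
AG: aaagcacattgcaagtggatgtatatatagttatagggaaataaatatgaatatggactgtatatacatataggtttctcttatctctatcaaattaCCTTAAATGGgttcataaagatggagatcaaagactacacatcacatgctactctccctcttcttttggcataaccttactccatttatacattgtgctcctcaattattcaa
ATH1: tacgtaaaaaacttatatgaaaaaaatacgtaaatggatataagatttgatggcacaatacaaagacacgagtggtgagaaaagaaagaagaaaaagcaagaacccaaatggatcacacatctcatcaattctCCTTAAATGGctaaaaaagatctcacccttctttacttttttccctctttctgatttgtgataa
TCP18: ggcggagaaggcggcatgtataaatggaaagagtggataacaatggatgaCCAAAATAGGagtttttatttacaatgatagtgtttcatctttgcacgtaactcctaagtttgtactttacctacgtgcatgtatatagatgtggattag
LHCB2.3: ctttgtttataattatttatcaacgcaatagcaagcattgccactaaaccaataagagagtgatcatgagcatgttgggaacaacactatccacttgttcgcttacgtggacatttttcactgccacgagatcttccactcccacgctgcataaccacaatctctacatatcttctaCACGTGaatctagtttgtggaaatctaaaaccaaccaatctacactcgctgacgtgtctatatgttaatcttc
ABCG11: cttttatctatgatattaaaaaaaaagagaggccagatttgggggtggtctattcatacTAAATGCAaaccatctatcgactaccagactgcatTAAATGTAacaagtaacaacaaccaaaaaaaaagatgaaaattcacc
GIS: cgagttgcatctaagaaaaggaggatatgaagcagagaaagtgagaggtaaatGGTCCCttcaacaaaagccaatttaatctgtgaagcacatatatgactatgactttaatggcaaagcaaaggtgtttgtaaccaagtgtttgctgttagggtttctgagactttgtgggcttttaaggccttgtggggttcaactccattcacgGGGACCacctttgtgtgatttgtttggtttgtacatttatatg

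Among seed coat-only sites, a flower peak was found at 27.2% (808 of 2969; exact 95% binomial interval 25.6% to 28.9%, counting error over sites only). The same flower lists had a peak at 4.08% of the 3041 root-only sites, which are in all 8 root lists and no seed coat list, at 74.2% of the 10683 sites of all 11 lists, and at 30.0% of all sites. The seed coat-only sites were thus overlapped far more often than root-only sites and far less often than the sites open everywhere. Their share was near that of all sites and slightly below it. The share with a flower peak was larger at higher ranks in the seed coat. Ranks are percentiles by the authors' score within a list, 100 being the top. Of seed coat-only sites with a mean percentile over the 3 seed coat lists of up to 20, 9.66% (43 of 445) had a flower peak, and of those above 80, 52.0% (237 of 456) had one. The intervals of these outer classes, 7.08% to 12.8% and 47.3% to 56.6%, do not overlap.

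**Figure D1:**
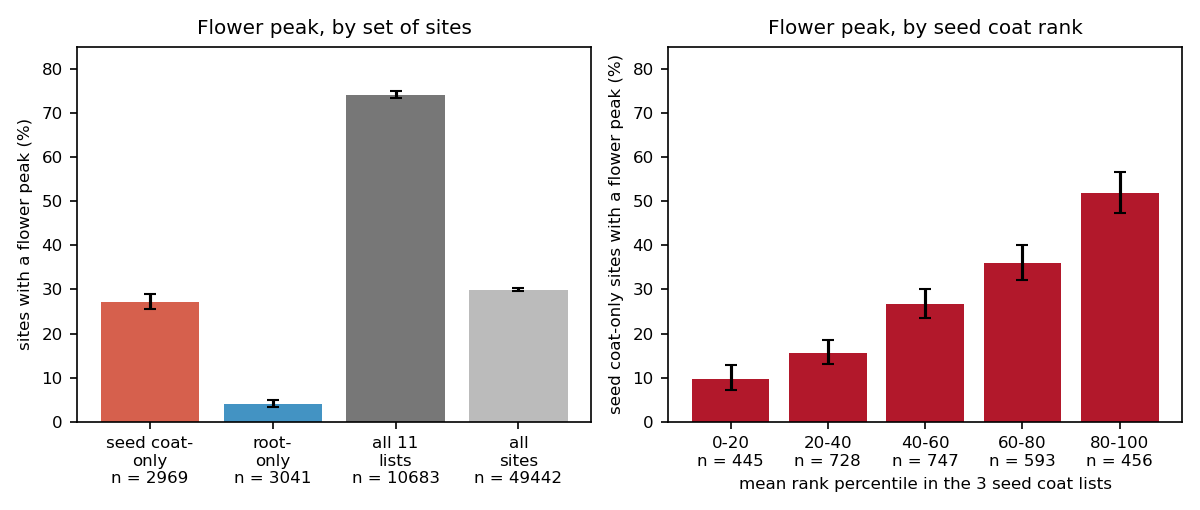
Left, percent of sites with a flower peak in each set of sites; right, the same for seed coat-only sites by mean rank percentile in the 3 seed coat lists. Error bars are exact 95% binomial intervals over sites; the share is 4.08% at root-only sites and climbs with rank to 52.0% in the top class of seed coat-only sites.

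The unopened flowers accounted for most of the overlap. A peak of the open flower list lay at 435 shared sites (53.8%) and one of the unopened flower list at 715 (88.5%). Both flower lists had a peak at 342 (42.3%, interval 38.9% to 45.8%), the open list alone at 93 (11.5%) and the unopened list alone at 373 (46.2%, interval 42.7% to 49.7%). Over all 16131 merged flower sites of the nuclear genome, 53.3% were in both lists, 19.3% in the open list alone and 27.4% in the unopened list alone. The shared sites thus had a larger portion seen in unopened flowers alone than flower sites as a whole. This was not particular to them. At the 124 root-only sites with a flower peak, defined below, that portion was 40.3% (interval 31.6% to 49.5%), which overlaps the interval of the shared sites. At sites of all 11 lists with a flower peak it was 12.7%. Sites in both flower lists had a median seed coat percentile of 70.9, against 53.2 for those of the open list alone and 62.7 for those of the unopened list alone.

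Percentiles of a seed coat list and of a flower list are not on one scale, since the flower lists are shorter (11748 and 13098 peaks, against 27036 to 30110 in the seed coat lists), and values from lists of unequal length stand side by side below only as a description. The median percentile of shared sites was 60.3 in the 7 DPA pool, 68.6 in 4 DPA replicate 1 and 71.9 in the 4 DPA pool. In the flower lists it was 37.9 among the 435 sites in open flowers and 42.2 among the 715 in unopened flowers. The mean seed coat percentile had a median of 64.7 at shared sites, 42.0 at the 2161 seed coat-only sites with no flower peak, and 68.3 at sites of all 11 lists. Scores are whole numbers and many are tied, so that, for example, 75 shared sites stand at the percentile 19.4 of the unopened flower list.

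**Figure D2:**
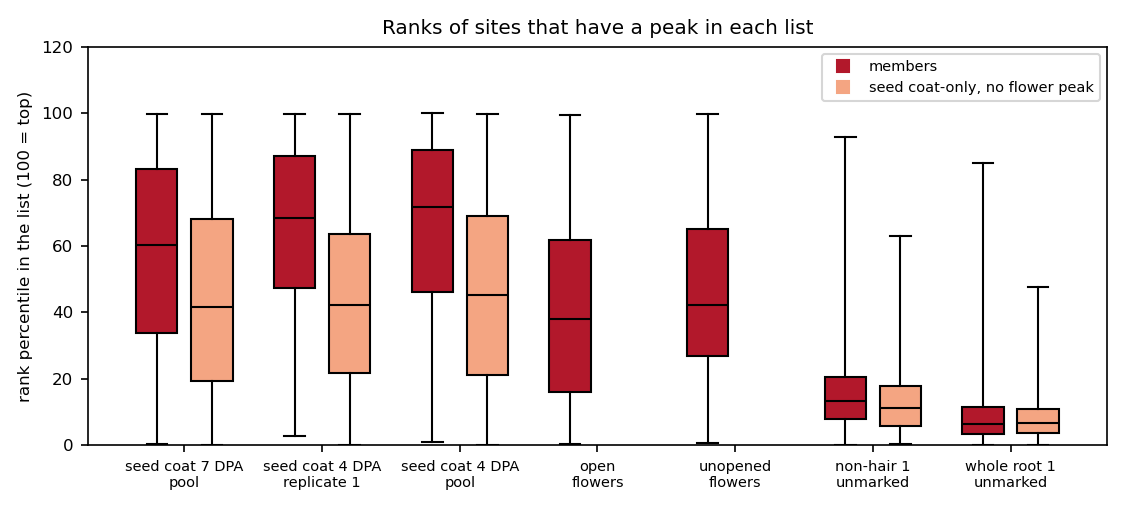
Rank percentile within each list (vertical axis, 100 the top) of the sites that have a peak in that list, for shared sites and for seed coat-only sites with no flower peak. Boxes give the quartiles with the median and whiskers the range; shared sites stand higher in each seed coat list, with medians of 60.3 to 71.9.

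A site close to the limit of the rule may differ little from a member. The smallest overlap with a flower peak was 10 bp, at 4 shared sites, while 9 seed coat-only sites were left out with a flower peak 10 bp away and 44 with one within 100 bp. Among the listed genes named below, the overlap was under 75 bp at AP3 (70 bp), LHCA1 and TCP10 (50 bp each), and ARF3 and BLH7 (30 bp each). Among sites with a flower peak, 462 were left out because they were in only 2 of the 3 seed coat lists and no root list, and 359 because they were in all 3 seed coat lists and in 1 root list. Absence from root also holds only for the lists used. The unmarked lists of whole root, non-hair and hair replicate 1, made from libraries of the root groups, had a peak at 118 shared sites (14.6%, interval 12.2% to 17.2%), against 13.4% of seed coat-only sites with no flower peak. These peaks were low in their lists. The median percentile was 13.2 in the non-hair list (68 shared sites), 6.25 in the whole root list (55) and 6.42 in the hair list (5). Among the listed genes named below, CER5 had a site with a peak in 2 unmarked root lists. The sites of CER2, CER4, CAB2, PSAE-1, ETC3, ARF6 and DMC1, and the farther sites of LOX2 and GIF1, had a peak in 1. A root peak of the 6.8M lists lay within 100 bp of 95 shared sites (11.8%), against 9.44% of seed coat-only sites with no flower peak, and the median distance to one was 590 bp. It lay 10 bp from the sites of BXL1 and LHCA2, 2 of the listed genes named below. The unmarked seed coat lists, from libraries that partly entered the choice, had a peak at 478 shared sites at 7 DPA (59.2%) and 794 at 4 DPA (98.3%). At seed coat-only sites with no flower peak the shares were 39% at 7 DPA and 97% at 4 DPA.

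Shared sites often lay away from promoters. Their centres were intergenic at 57.1% (461 of 808), within 400 bp upstream of a transcription start site (TSS) at 20.8%, in a 5′ UTR at 9.16%, in an intron at 6.44%, in a 3′ UTR at 4.83% and in a coding exon at 1.73%. The intergenic share was 46.4% at seed coat-only sites with no flower peak, 53.4% at root-only sites, 33.0% at sites of all 11 lists and 43.6% at all sites. The upstream share, 20.8%, compares with 23.4%, 26.3%, 45.0% and 28.7% in those sets. A centre more than 1000 bp from the nearest TSS was found at 50% of shared sites, against 42.5%, 45.7%, 27.1% and 39.1%. The exact intervals of the intergenic share (53.6% to 60.5% at shared sites, 44.2% to 48.5% at the other seed coat-only sites) do not overlap. That of root-only sites, 51.6% to 55.2%, overlaps the interval of the shared sites, so a high intergenic share was not particular to them. GC content of the central 150 bp averaged 35.4 ± 4.22% at shared sites and 33.6 ± 4.52% at the other seed coat-only sites (SD over 808 and 2161 sites).

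The nearest protein-coding genes of the 808 sites were 758, or 3.62% of the 20952 genes that are nearest to any site. Seed coat-only sites with no flower peak were nearest to 9.26% of those genes and root-only sites to 11.8%. Of the 758 genes, 154 (20.3%) were also nearest to a seed coat-only site with no flower peak and 280 (36.9%) to a site of all 11 lists. The 18 lists of genes used below hold 431 genes, of which 389 are nearest to a site and 75 to a shared site. The 75 are 19.3% of the 389, against 3.62% of all genes. The lists were chosen with earlier results known, so a list is read against both shares. One near 19.3% does not stand apart from the listed genes together. Nearness does not show that a site acts on the gene.

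Floral MADS genes had the highest portion of members near shared sites. Of 17 listed genes, 15 had a site of any kind and 6 of these (40%) a shared site, which were AP3, AG, SEP1, SEP2, SEP3 and SEP4, while 1 (AG) had a seed coat-only site with no flower peak and none had a root-only site. AP3 specifies petals and stamens. Its site (chr3:20121241-20121490, 51 bp upstream of the TSS by its centre) stood at percentile 96.2 in the 7 DPA pool, 88.4 in 4 DPA replicate 1, 97.4 in the 4 DPA pool, 77.7 in open flowers and 83.5 in unopened flowers. It thus stood above percentile 75 in all 5 lists. Its largest overlap with a flower peak was 70 bp, so it is not kept when at least 75 bp are required.

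AG, which specifies stamens and carpels, had 2 shared sites upstream of its TSS. The site centred 1591 bp upstream, printed above, stood at 98.9, 79.4 and 95.4 in the 7 DPA pool, 4 DPA replicate 1 and the 4 DPA pool, and at 59.7 in open and 76.3 in unopened flowers. The site centred 1051 bp upstream (chr4:10381681-10381930) stood at 90.0, 85.2 and 91.2 in the same seed coat lists and at 73.0 in unopened flowers, and the open flower list had no peak there. Neither had a root peak of the 6.8M lists closer than 5750 bp.

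The SEP genes encode cofactors of the floral identity proteins. SEP2 had a site centred 714 bp upstream (94.5, 92.3 and 90.3 in the 7 DPA pool, 4 DPA replicate 1 and the 4 DPA pool; 15.9 in open and 81.5 in unopened flowers) and another at its TSS (79.6, 79.9 and 76.1; unopened flowers 27.0, no open flower peak). The open flower list thus had a peak at the distal site alone. SEP3 had sites centred 32 bp and 1152 bp upstream, with mean seed coat percentiles of 67.9 and 66.4, of which the distal site was seen in open flowers alone (71.0) and the proximal site in both lists (34.5 open, 49.2 unopened). The SEP1 site in its 5′ UTR had 71.2 over the seed coat lists, 2.94 in open and 69.4 in unopened flowers. The SEP4 site, 624 bp upstream, had 57.7 over the seed coat lists and 27.0 in unopened flowers alone. None of the 5 floral MADS sites found in both flower lists ranked higher in open than in unopened flowers.

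Genes of ovule, gynoecium and fruit patterning were near shared sites at 8 of the 30 with a site (26.7%), and 11 of the 30 were near a seed coat-only site with no flower peak. The 8 genes had 10 shared sites, all in the unopened flower list and 1 of them, at SHP1, also in the open list. SHP1 and SHP2 are MADS genes of the ovule and the valve margin of the fruit. The SHP1 site, 755 bp upstream, had percentiles of 68.2, 95.8 and 97.6 in the 7 DPA pool, 4 DPA replicate 1 and the 4 DPA pool, 57.6 in open and 65.2 in unopened flowers. The SHP2 site in the 5′ UTR had 95.1, 88.1 and 93.4 in the seed coat lists and 0.70 in unopened flowers. The 2 sites were closer to each other in the 4 DPA lists than in the 7 DPA pool and the unopened flower list.

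NGA2, a B3 factor of style development, was the gene nearest to 3 shared sites, centred 32 bp downstream and 468 bp and 1698 bp upstream of its TSS. Their mean seed coat percentiles were 78.9, 59.0 and 79.7, and their percentiles in unopened flowers 65.2, 7.39 and 27.0. No other gene was nearest to 3 or more, and 48 were nearest to 2. SPL, needed for spore formation, had a site 3021 bp upstream with a mean seed coat percentile of 88.1 and 60.5 in unopened flowers. ARF3, an auxin response factor of gynoecium patterning, had 71.9 and 27.0 on these measures, and HEC1, a bHLH gene of the transmitting tract, 64.4 and 2.06. ALC, a bHLH gene of the fruit's separation layer, had 49.7 and 27.0, and SUP, which bounds stamens from carpels, 38.9 and 12.6. None of the 10 sites had a peak in an unmarked root list.

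Photosynthesis genes formed the largest group by number. Of the 44 with a site, 14 (31.8%) were nearest to a shared site, 1 (PSAE-1) to a seed coat-only site with no flower peak and 2 (HEMA1 and LHCB4.3) to a root-only site. The 14 comprise RBCS1A and RBCS3B of Rubisco's small subunit, LHCA1 and LHCA2 of the photosystem I antenna, CAB1, CAB2, LHCB2.1, LHCB2.3 and LHCB3 of the photosystem II antenna, PSAD-1, PSAE-1 and PSAH2 of photosystem I, PSBW of photosystem II, and PORA, an enzyme of chlorophyll synthesis. Their sites sat at promoters, with 12 of 14 in the upstream class or a 5′ UTR and a median distance of 103 bp from the TSS, against 1000 bp over all shared sites. They were in the open flower list at 13 of 14 sites and in the unopened list at 12, against 53.8% and 88.5% over all shared sites.

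These photosynthesis sites ranked lower in seed coat than shared sites as a whole. Their median percentile was 40.7 in the 7 DPA pool, 48.6 in 4 DPA replicate 1 and 20.5 in the 4 DPA pool, each below the medians over all shared sites. Seed coat-only sites with no flower peak had 41.6, 42.2 and 45.1 in these lists, so only the 4 DPA pool was clearly lower than there. In flowers their medians were 47.1 (open) and 48.8 (unopened), each above those of all shared sites. The RBCS1A site (chr1:25049361-25049590) was the highest-ranked, with 70.8, 86.0 and 67.1 in the 7 DPA pool, 4 DPA replicate 1 and the 4 DPA pool, 94.5 in open and 81.5 in unopened flowers. The RBCS3B site had 39.7, 52.1 and 8.05 in those seed coat lists, 92.4 in open and 27.0 in unopened flowers. LHCB2.1 had 55.4, 39.4 and 18.5, with 87.6 in open and 42.2 in unopened flowers. At 8 of the 11 sites in both flower lists the rank was higher in open flowers, against 119 of 342 over all shared sites.

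Genes of the TCP and GRF growth regulators had a shared site at 7 of 24 (29.2%). TCP18, also named BRANCHED1 and known for holding back side shoots, had the shared site of highest mean percentile over the lists with a peak (2414 bp upstream, printed above), with 99.7, 99.7 and 99.96 in the 7 DPA pool, 4 DPA replicate 1 and the 4 DPA pool, 98.4 in open and 95.8 in unopened flowers. TCP15, a class I TCP gene, had 70.0, 93.4 and 96.2 in those seed coat lists, 67.3 in open and 12.6 in unopened flowers. TCP3, of the class that limits leaf growth, had 64.5, 88.8 and 84.0, with 37.9 in open and 69.4 in unopened flowers. The others were TCP10, GRF4, GRF5 and GIF1, a coactivator of GRF proteins, whose 2 sites lay 9889 bp and 3709 bp upstream. No site of this group was in an annotated promoter or gene body, and 4 of its 8 sites lay in both flower lists.

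Cuticle genes had a shared site at 9 of the 39 with a site (23.1%), and 15 (38.5%) had a seed coat-only site with no flower peak. ABCG11, an exporter of cutin and wax, had 89.7, 89.1 and 93.3 in the 7 DPA pool, 4 DPA replicate 1 and the 4 DPA pool, 44.1 in open and 19.4 in unopened flowers. The site of CER5, a wax exporter, had 98.0, 73.7 and 94.5 in seed coat and 9.93 in open flowers alone, with a peak in 2 unmarked root lists. CER1, of alkane synthesis, had 67.5 over the seed coat lists and 85.4 in unopened flowers, and was the only one of the 9 with a flower percentile above 60. The regulator WIN1 had 78.8 over the seed coat lists and 52.6 and 49.2 in open and unopened flowers. The remaining genes were CER2, CER3, CER4, KCS1 and LTP3. The sites of CER2 and CER4 each had a peak in 1 unmarked root list.

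Genes of trichomes and stomata had a shared site at 6 of 20 (30.0%). ZFP8, a zinc finger gene of trichome initiation, had 98.0, 97.9 and 97.7 in the 7 DPA pool, 4 DPA replicate 1 and the 4 DPA pool, 23.3 in open and 55.3 in unopened flowers. GIS, of the same family, had 52.8, 98.5 and 97.2 in seed coat, 74.6 in open and 73.0 in unopened flowers. The others were the MYB repressors TRY and ETC3, the bHLH gene EGL3 and EPFL9, a stomatal signal peptide. BELL and KNOX homeobox genes had one at 3 of 20 (15%). ATH1 had 94.6, 97.0 and 96.4 in those seed coat lists, 72.7 in open and 88.6 in unopened flowers, and BLH8 had 99.1, 92.7 and 97.6 in seed coat and 7.39 in unopened flowers alone. BLH7 also stood at 7.39 there.

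Genes of flavonoid pigments had a shared site at 5 of 18 (27.8%) and a seed coat-only site with no flower peak at 8 (44.4%). The shared sites were near PAP1, PAP2, MYB12, MYB111 and TT7, of which the first pair regulate anthocyanins, MYB12 and MYB111 flavonols, and TT7 is a flavonoid hydroxylase. TT1, TT2, TT8, TT10 and TT19, needed for seed coat tannin, were near seed coat-only sites with no flower peak and near no shared site. The other 3 genes with such a site were MYB12, MYB111 and TT7, which also had a shared site. The pigment genes were thus not parted cleanly by the kind of site. PAP2 had 94.3, 96.5 and 89.0 in the 7 DPA pool, 4 DPA replicate 1 and the 4 DPA pool, 41.1 in open and 81.5 in unopened flowers. MYB12 had 79.1, 95.1 and 98.0 in those lists, 30.9 in open and 76.3 in unopened flowers. Mucilage genes had a shared site at 3 of 20 (15%), which were BXL1, SBT1.7 and NAC2, and a seed coat-only site with no flower peak at 8 (40%). BXL1, a cell wall xylosidase of seed mucilage, had 90.5, 99.2 and 99.8 in seed coat, 80.2 in open and 90.0 in unopened flowers. SBT1.7, a protease needed for mucilage release, had 94.5, 95.9 and 96.1 in seed coat and 27.0 in unopened flowers alone.

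**Figure D3:**
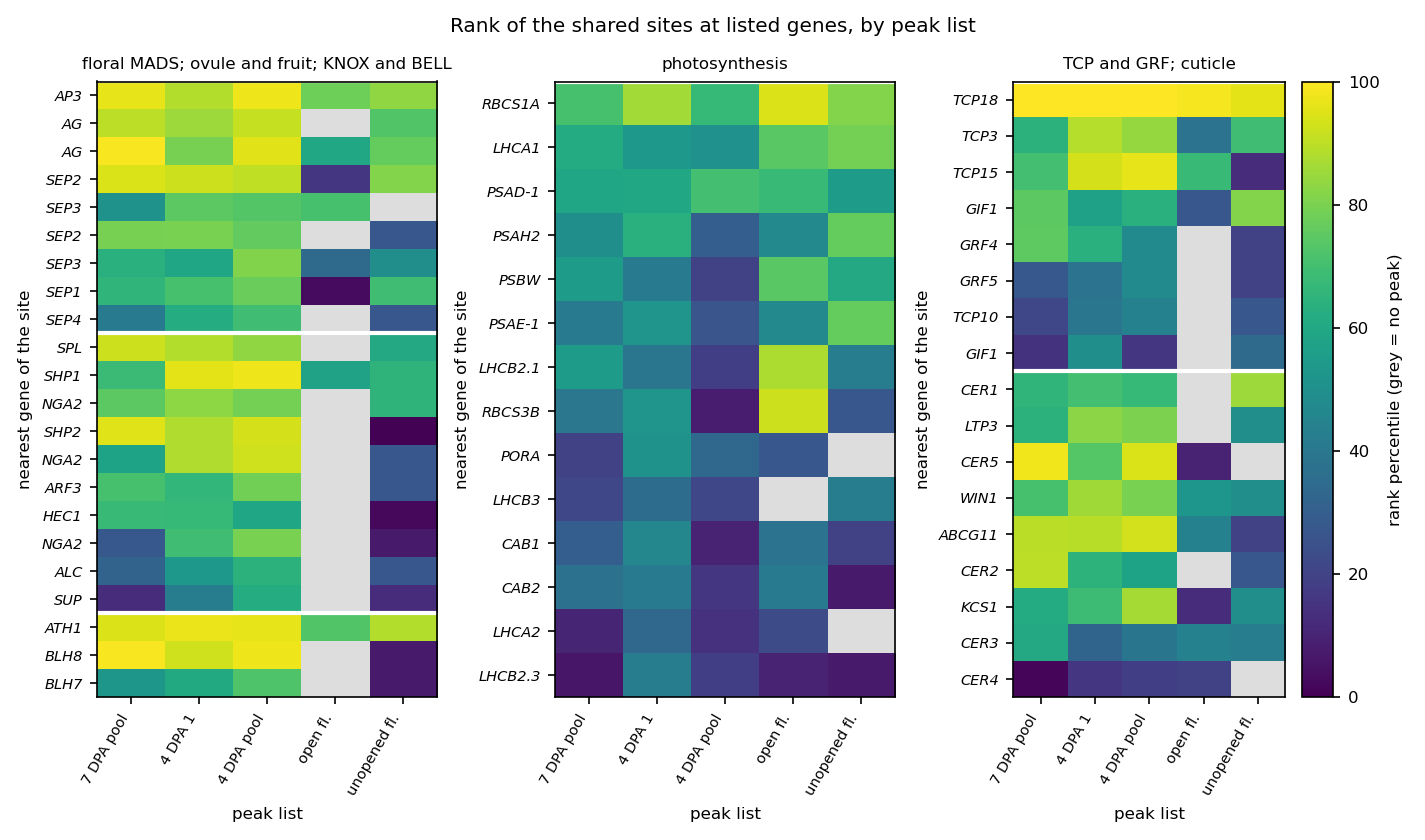
Rank percentile (colour, 100 the top; grey, no peak) of shared sites in the 3 seed coat lists and the 2 flower lists, 1 row per site and named by its nearest gene. White lines part the gene groups in the order of each panel's title; an open flower peak is present at 6 of 9 floral MADS sites, 1 of 10 ovule and fruit sites and 13 of 14 photosynthesis sites.

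Genes of stamen and petal growth had a shared site at 5 of 21 (23.8%). These were LOX2 of jasmonate synthesis, the auxin response factor ARF6, MYB26 of the anther wall, and GA20OX1 and GA20OX2 of gibberellin synthesis. LOX2 had 2 sites, 850 bp and 80 bp upstream, both with 76.3 in open flowers, and with 12.6 (distal) and 76.3 (proximal) in unopened flowers. Their mean seed coat percentiles were 71.1 and 48.9. Of 13 tapetum and pollen genes with a site, DMC1, a meiotic recombinase, had a shared site 3523 bp upstream, with 98.6, 99.2 and 99.7 in the 7 DPA pool, 4 DPA replicate 1 and the 4 DPA pool and 94.0 in unopened flowers alone. By mean percentile over the lists that have a peak it stood next to TCP18, but its mean leaves out the open flower list.

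Other lists gave fewer genes. Organ initiation had 1 of 20 (CUC3), leaf polarity 2 of 14 (FIL and KAN2), flowering time 3 of 23 (TSF, SPL9 and TOE3) and auxin genes 3 of 34 (AUX1, ARF3 and ARF10). None of the 11 embryo genes, 6 endosperm genes and 21 root hair genes with a site had a shared site. At the share of all genes, 3.62%, each of these lists would hold less than 1 such gene, and the choice leaves out sites with a root peak, so these counts of 0 do not check the labels. Of the embryo genes 3 (27.3%) had a seed coat-only site with no flower peak, against 9.26% of all genes and 21.3% of the listed genes together. A root-only site was nearest to 2 embryo genes (18.2%), against 11.8% of all genes. A root-only site was nearest to 10 of the root hair genes (47.6%).

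**Figure D4:**
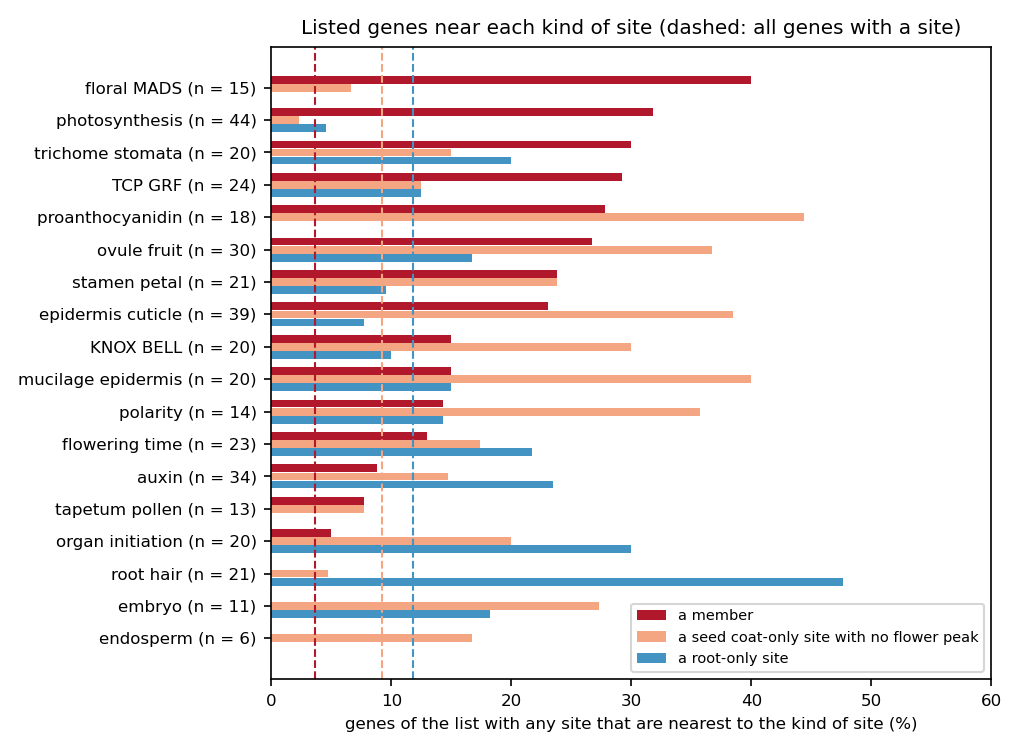
For each gene list, the percent of its genes with any site that are nearest to a shared site (a member), to a seed coat-only site with no flower peak or to a root-only site; dashed lines give the same for all genes with a site (3.62%, 9.26% and 11.8%). Floral MADS (40%) and photosynthesis (31.8%) lead among shared sites, against 19.3% of the listed genes together.

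Among the 12 highest-ranked shared sites by mean percentile over the seed coat lists and those flower lists that have a peak, TCP18 and DMC1 were the only listed genes. SAUR15, an auxin-responsive SAUR gene, had a site 162 bp upstream with 85.2, 98.9 and 99.6 in the 7 DPA pool, 4 DPA replicate 1 and the 4 DPA pool, 98.4 in open and 99.3 in unopened flowers. AT3G57800, a bHLH gene, had 98.8, 98.9 and 99.6 in seed coat, 93.9 in open and 95.8 in unopened flowers, and AT3G61950, another bHLH gene, 99.6, 99.0 and 99.9 in seed coat and 79.1 in unopened flowers alone. The site nearest to AT1G24265 (chr1:8598761-8598910; 92.4, 99.7 and 99.3 in seed coat, 97.3 in open and 97.8 in unopened flowers) lay 1556 bp upstream of that gene and 2712 bp upstream of the TSS of SEP3, beyond the 2 sites of SEP3. The others were near AT2G07638, AT2G07739, AT1G70380, AT4G00860, the kinase gene CIPK5 and the lipid phosphatase gene LPP4. Of these 12 sites 4 had a peak in an unmarked root list, in 1 list at DMC1, AT1G24265 and LPP4 and in 2 at AT4G00860. A root peak of the 6.8M lists lay 70 bp from the AT1G24265 site and 10 bp from the AT2G07638 site. The AT3G61950 site overlapped its flower peak by 30 bp, so it is not kept when at least 75 bp are required.

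The sites near AT2G07638 and AT2G07739, and a lower one near AT2G07806, lie in chromosome 2 where their central 100 bp are identical to the mitochondrial genome of the reference. Nuclear and mitochondrial reads there cannot be told apart by sequence. Of the other seed coat-only sites 1 had such a copy and of root-only sites none. No shared site had central 100 bp found more than once in the nuclear genome.

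Motif matches were counted on both strands of the central 150 bp. For each motif the share over all sites in this window is given too. The G-box (CACGTG) was in 11.9% of shared sites (96 of 808; interval 9.73% to 14.3%), against 4.53% of seed coat-only sites with no flower peak (interval 3.70% to 5.50%), 2.37% of root-only sites, 12.3% of sites of all 11 lists and 7.24% of all sites. The auxin response element (TGTCTC) was in 15.8% of shared sites, against 9.86%, 6.48%, 7.52% and 8.40% in these sets. The TCP core (GGNCCC) was in 13.6%, against 8.24%, 4.01%, 12.1% and 8.67%. For these 3 motifs the exact interval at shared sites does not overlap that at the other seed coat-only sites, and the same holds among sites with a mean seed coat percentile of at least 50, where the shares were 9.59% and 3.99% (G-box), 16.5% and 8.79% (auxin response element), and 15.1% and 8.09% (TCP core) at 563 shared and 853 other sites.

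The CArG box, the motif of MADS proteins, was in 5.2% of shared sites (42 of 808; interval 3.77% to 6.96%), against 3.61% of seed coat-only sites with no flower peak (interval 2.86% to 4.48%), 0.789% of root-only sites, 2.32% of sites of all 11 lists and 1.92% of all sites. The intervals of shared and other seed coat-only sites overlap, which does not show that the shares are alike, while both lay above root-only sites. The L1 box (TAAATGCA or TAAATGTA) was in 6.06%, against 4.3%, 2.27%, 2.01% and 2.59%, again with intervals that overlap between the first 2 sets. Over whole sites, shared and other seed coat-only sites had 6.44% and 4.3% for the CArG box and 7.8% and 5.51% for the L1 box. Site II, another TCP motif (TGGGCC or TGGGCT), was in 9.03% of shared sites and 9.21% of the other seed coat-only sites. It was in 3.72% of root-only sites, 40.4% of sites of all 11 lists and 18.9% of all sites. The W-box of WRKY factors (TTGACC or TTGACT) was in 11.4% and 12.7% of them, against 42.5% of root-only sites and 23.2% of all sites. The GCC box (AGCCGCC) was in none of the 808 windows, which allows a share of up to 0.456% by the exact interval, and in 0.443% of all sites. A stretch such as TGGGCCC matches the TCP core and site II at once, and 11 shared sites matched both motifs. A match is a description of the letters and not a bound site.

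**Figure D5:**
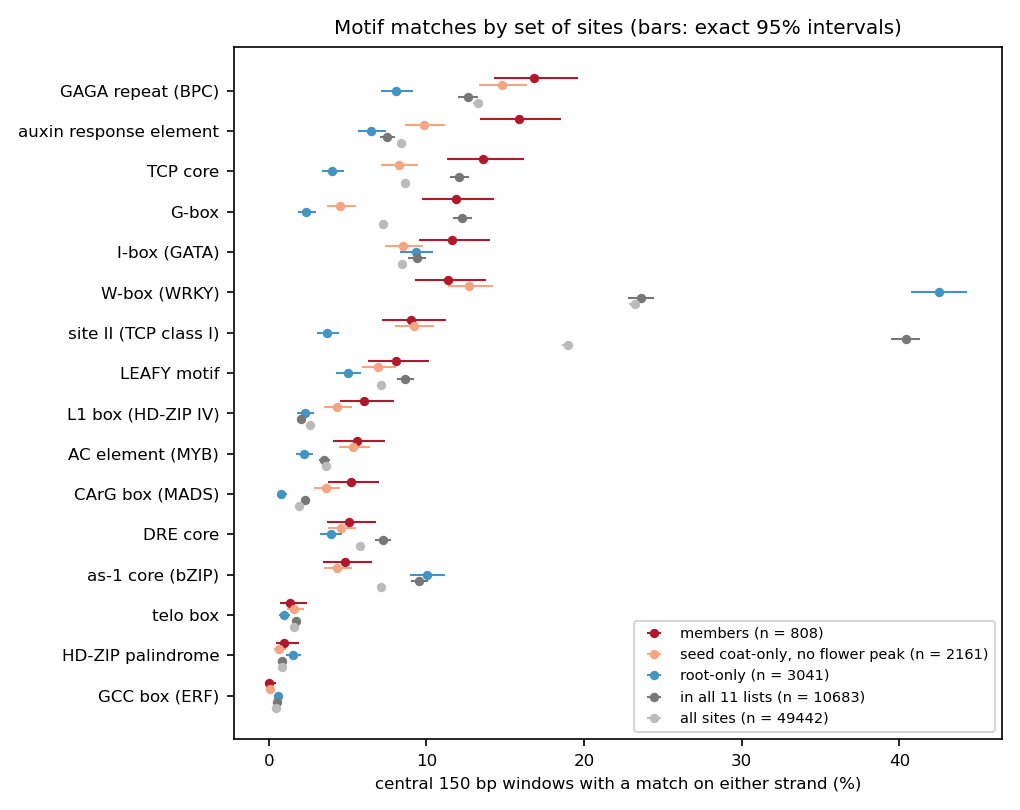
Percent of central 150 bp windows with a match to each motif on either strand (horizontal axis) in 5 sets of sites; points are shares and bars exact 95% binomial intervals. Shared sites (members) stand above the other seed coat-only sites for the G-box, auxin response element and TCP core, and root-only sites stand apart for the W-box at 42.5%.

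The G-box was more frequent at shared sites in the upstream class or a 5′ UTR (19.4%, 47 of 242) than at those elsewhere (8.66%, 49 of 566), with intervals of 14.6% to 25.0% and 6.47% to 11.3%. At seed coat-only sites with no flower peak the same shares were 4.07% and 4.79%. It was also in 16.1% of sites of both flower lists, 9.68% of those of the open list alone and 8.58% of those of the unopened list alone. Of the 14 photosynthesis sites, 7 held a G-box in this window. These 8 matches are printed with 10 bases on each side, on the strand of the gene and with capitals for the G-box, because they let the flanks be compared.
RBCS1A, chr1:25049493-25049518, minus strand: aattatcttcCACGTGgcattattcc
LHCA1, chr3:20341087-20341112, minus strand: atcgagaagaCACGTGgcccaatgaa
PSAH2, chr1:19454721-19454746, plus strand: ttttataatcCACGTGgcatttccta
PSAH2, chr1:19454776-19454801, plus strand: cccaattcgcCACGTGgcagaacaag
PSBW, chr2:13020261-13020286, minus strand: tgaaatatgaCACGTGgagggcgtcg
PSAE-1, chr4:14204038-14204063, minus strand: atgtaatgtaCACGTGgcagatctca
RBCS3B, chr5:15378508-15378533, minus strand: agttttctgcCACGTGgccttatcct
LHCB2.3, chr3:10255808-10255833, plus strand: atatcttctaCACGTGaatctagttt
In 7 of these 8 the base after the G-box is G, and LHCB2.3 is the exception. The G-box reads the same on both strands, so the strand printed decides which flank is counted. The next base was not counted at other sites, so this is not given as particular to photosynthesis sites.

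CArG boxes in the central window of listed genes were found at 6 sites, which include 1 floral MADS site (AG), 2 ovule and fruit sites (ARF3 and SUP), 2 of TCP genes and ATH1. The AG and ATH1 matches are in the sequences printed above and have the same 10 letters. The other 3 besides TCP18 are printed in the same way, with capitals for the CArG box.
TCP15, chr1:26214216-26214245, plus strand: tggtcctaaaCCTTTTTAGGgggcaaagtg
ARF3, chr2:14330149-14330178, minus strand: atatgccctaCCATTAATGGaccctacttt
SUP, chr3:8241310-8241339, plus strand: atccacttttCCATTTTTGGtataaaactt
The boxes lie 1778 bp, 1186 bp and 931 bp upstream of the TSS of TCP15, ARF3 and SUP. The AP3 site, the highest-ranked of the floral MADS sites, had no match in its central window.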

How the data were processed

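DNase I cut small fragments of captured nuclei were sequenced, per the labels' protocols. The deposited files are peak lists with a score per peak made by the authors, in whole numbers with no header. Bowtie 0.12.7 and the TAIR10 build are named in the submitters' processing notes. Which program called the peaks, and at which threshold, is not given in the sources used here. Scores were used only for rank percentiles within a list, ties sharing their mean rank. Pools join 2 libraries, per the series' design text. The unmarked lists of 4 DPA replicates 1 and 2 are identical and stem from 1 library, so they were counted once.

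Peaks of organelles were left out. The 11 lists at 6.8M held 24751 to 30110 nuclear peaks, the open flower list 11748 and the unopened flower list 13098. The read number behind an unmarked list is unknown, so depth cannot be set beside its counts. Exact 95% Clopper-Pearson intervals cover counting error over sites only. The centre of each site was placed on the RefSeq annotation of TAIR10.1 (27444 protein-coding genes), all peaks lying within its chromosome lengths, in the order upstream (400 bp), 5′ UTR, coding exon, intron, 3′ UTR, intergenic. Python 3.11.15 scripts used NumPy 2.4.6, pandas 2.3.3, SciPy 1.17.1 and matplotlib 3.10.9, and the overlap, placement and motif searches were tested on simulated data.

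The members, the 18 gene lists, 16 motifs and alternatives were chosen with earlier results of these data known. Genes named are those of the lists nearest to a shared site, the 12 sites of highest mean percentile over the lists that have a peak and genes nearest to 3 or more. Of the listed symbols, 11 could not be matched to the reference and were not used, and 21 were matched by hand.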

Additional observations from a re-analysis of the deposited data

How the results depend on the processing

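The count of 808 shared sites depends mostly on which peaks are admitted. It was 1252 with only the top 50% of peaks of each 6.8M list, 361 with only the top 50% of each flower list, 435 with the open flower list only, 342 with a peak required in both flower lists and 1475 without the 3 pooled lists. It was 690 to 876 under the other alternatives that keep all lists, and 816 to 1176 with a list left out, the highest being without the 7 DPA pool. The share of seed coat-only sites with a flower peak, 27.2%, was 25.1% with an overlap of at least 75 bp, 56.2% and 12.2% with the top 50% of the 6.8M and of the flower lists, 33.6% with equal numbers of peaks, 14.7%, 24.1% and 11.5% with the open list, the unopened list or both, and 21.4% without the pooled lists. It was 24.9% to 28.1% with a list left out. The share in both flower lists, 42.3%, was 37.3% with the 75 bp overlap, 55.8% and 24.9% with those top 50% and 37.6% without the pools. The share with a peak in an unmarked root list, 14.6%, was 60.1% and 18.0% with those top 50%, 22.7% with equal numbers of peaks, 17.5% with both flower lists required and 13.7% to 18.5% with a list left out. With the top 50% of each 6.8M list, most sites counted as free of root peaks thus have one in an unmarked root list. The upstream share, 20.8%, was 24.8% with the top 50% of the 6.8M lists, 16.5% without the pools, 17.6% to 21.2% with a list left out and 39.6% with 1000 bp in place of 400. The CArG share stayed between 4.14% and 6.44% and the median seed coat percentile between 59.0 and 70.9 in all alternatives run. Among alternatives added after seeing the data, leaving out the 3 sites with a mitochondrial copy gave 805 sites, and keeping only mean seed coat percentiles of at least 50 gave 11.9% with an unmarked root peak. Searching whole sites raised the auxin response element to 20.5%, the GAGA repeat to 21.8%, the I-box to 15% and the W-box to 14.4% of shared sites. Counting only sites within 3000 bp of the TSS kept 65 of the 75 listed genes and left the pigment list with 3 genes, and the organ initiation and pollen lists with none. The cause of these shifts was not tested. No paired analysis was possible because the lists carry no replicate numbers that pair the groups and no result comes from a test over samples. A weak flower site may be missed, since the number of reads behind the flower lists is unknown.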

Other observations

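The genes named here were picked after their values were seen and lie outside the lists. By product description, 10 of the 758 genes nearest to shared sites encode MADS proteins (1.32%), against 0.412% of genes nearest to seed coat-only sites with no flower peak, 0.202% of those nearest to root-only sites and 0.372% of genes nearest to any site. Beside the listed genes these were AGL15, known from embryos, and AGL18, with mean seed coat percentiles of 81.1 and 83.2 and percentiles of 34.6 and 42.2 in unopened flowers. AGL15 also had a peak in open flowers, at 7.47. Genes of light-harvesting proteins were 7 of 758 (0.923%), against 0 of 1941, 0.0403% and 0.115% in the same sets. A higher share was not particular to these families. bHLH genes were 2.11% of the 758 genes and 0.578% of genes nearest to any site. MYB genes were 1.85% and 0.706%, homeobox genes 1.98% and 0.854%, and TCP genes 0.396% and 0.0764%. Of the 19 families counted, NAC, WRKY, AP2/ERF, B3, peroxidase and kinase genes were below their share of all genes, and the others above it.

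PHOT1, a blue light receptor of phototropism, and NPH3, its signalling partner, were each nearest to 2 shared sites. The PHOT1 site 1516 bp upstream had a mean seed coat percentile of 63.3, 82.4 in open and 85.4 in unopened flowers, and that in its intron had 46.2, 15.9 and 49.2. The NPH3 site 701 bp upstream had 96.0 and, in unopened flowers alone, 69.4, and the nearer NPH3 site, 261 bp upstream, had 76.6, 5.46 in open and 4.1 in unopened flowers. Genes of brassinosteroid synthesis were also present. BR6OX2, of its last steps, had sites 3881 bp and 5951 bp upstream with mean seed coat percentiles of 93.1 and 49.7, the nearer seen in unopened flowers alone (27.0) and the farther in open flowers alone (27.1). DWF4, of an earlier step, had an intronic site with 71.0, 67.3 in open and 42.2 in unopened flowers. MYB4, a repressor of phenylpropanoid genes, had 2 sites seen in unopened flowers alone, of which that 1955 bp downstream of the TSS had 96.6 in seed coat and 65.2 in unopened flowers.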
